A study of Mus musculus with 6 samples.

Results

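The YAP and TEAD pathway was followed through 10 genes in embryonic mouse hearts that lack filamin C. These are *Yap1*, *Wwtr1*, *Tead1*, *Ccn1*, *Ccn2*, *Ankrd1*, *Amotl1*, *Amotl2*, *Lats2* and *Ajuba*, and they were listed by name as known regulators and targets of the pathway, 10 of 54356 genes to which the quantified transcripts could be assigned. The list was drawn up with earlier results of these data known. For each gene the estimated read counts of all its annotated transcripts were added up in each library. All 10 were among the 16048 genes that passed the filter for low counts.

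YAP (encoded by *Yap1*) and its paralog TAZ (encoded by *Wwtr1*) are transcriptional coactivators that shuttle between cytoplasm and nucleus and bind DNA through the TEAD factors, of which *Tead1* is the member best known in cardiac muscle. The Hippo kinases LATS1 and LATS2 phosphorylate YAP and TAZ and keep them out of the nucleus, the angiomotins hold them at junctions and on actin filaments, and the LIM protein AJUBA binds and restrains LATS. Stretch, a stiff matrix and actin tension move YAP and TAZ into the nucleus, where *Ccn1*, *Ccn2* and *Ankrd1* are their most widely used target genes, and in the embryonic heart the pathway is known for promoting cardiomyocyte proliferation. Much of this regulation acts on protein location and phosphorylation, which RNA levels do not record.

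RNA had been sequenced from hearts of FlncgKO embryos and of littermate controls at E9.5, with 3 libraries per group on a C57BL/6 background. FlncgKO (*Flnc* −/−) mice derived from a cross of *Flnc* fl/fl mice to *Sox2*Cre mice. *Sox2*Cre is active in the epiblast, and *Flnc* is lost from every embryonic lineage and not from cardiomyocytes alone. The control genotype is given only as control, the tissue is labelled whole heart whereas the methods allow hearts or isolated ventricles, and the number of hearts pooled per library is not given in the sources used here. Each library was treated as 1 replicate, and p-values measure the spread between these libraries, which may be partly technical.

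Libraries held 19208859 to 23123255 estimated counts. *Flnc*, which encodes the actin cross-linker filamin C, was at 127, 111 and 240 CPM in FlncgKO replicates 1, 2 and 3, against 844, 623 and 746 CPM in control replicates 1, 2 and 3 (CPM relates the reads of a gene to all reads in its library, here after TMM scaling for composition). Every FlncgKO library lay under every control, 4.63-fold lower on average (log2 fold change −2.21, SE 0.35, edgeR adjusted p = 0.0656, DESeq2 adjusted p = 1.11e-06). FlncgKO replicate 3 correlated more closely with control replicate 3 (Pearson r = 0.983 across genes, log2 CPM) than with FlncgKO replicates 1 (0.977) and 2 (0.962). Control replicate 3 likewise correlated less closely with control replicates 1 (0.979) and 2 (0.969) than with FlncgKO replicate 3. FlncgKO replicate 2 was also closer to control replicate 2 (0.970) than to FlncgKO replicate 3. The groups also differed in the sex of the embryos: 4 Y-linked genes summed to 80.7, 3.88 and 4.28 CPM in FlncgKO replicates 1, 2 and 3, against 117 to 140 CPM in controls. Sex and genotype cannot be fully told apart with these libraries. Results are given below beside the values of FlncgKO replicate 1, which carried Y-linked RNA, and for several genes also without FlncgKO replicate 3.

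TEAD factors recognise the letters GGAATG, read as CATTCC on the opposite strand, so the reference promoters of the 10 genes were searched for them in both directions. RefSeq windows of 300 bases (250 before and 50 after a transcription start, GRCm38.p6) were matched for 8 of the 10 genes (10 windows, since a gene can have several starts), and *Tead1* and *Ccn2* were not matched. At least 1 GGAATG stood in a window of 7 of these 8 genes, against 14.7% of all 32851 windows and 16.6% of the 27025 genes that have one. *Amotl1* had none. Of other known YAP and TAZ targets with a window, 3 of 11 (27.3%) held it, against 5 of 12 cardiomyocyte markers (41.7%). Shares in the other lists used below ran from 0 of 5 erythroid markers to 3 of 5 other TEADs and Vgll coregulators (60%). Whether the letters mark YAP and TAZ targets was not tested. The stretches below show where these letters lie in the promoters of the genes whose RNA is described next. They run 5′ to 3′ along the gene's own strand, with GGAATG or CATTCC in capitals.
*Ccn1* (chr3:145650071-145650100, minus strand): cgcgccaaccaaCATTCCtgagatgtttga
*Ankrd1* (chr19:36120037-36120066, minus strand): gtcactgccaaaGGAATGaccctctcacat
*Ankrd1* (chr19:36119950-36119979, minus strand): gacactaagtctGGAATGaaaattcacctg
*Amotl2* (chr9:102717727-102717756, plus strand): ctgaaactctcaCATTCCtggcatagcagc
*Lats2* (chr14:57746102-57746131, minus strand): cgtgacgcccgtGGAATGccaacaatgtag
*Ajuba* (chr14:54577830-54577859, minus strand): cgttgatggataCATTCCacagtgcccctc
*Ajuba* (chr14:54577808-54577837, minus strand): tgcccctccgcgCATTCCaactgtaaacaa
*Yap1* (chr9:8004720-8004749, minus strand): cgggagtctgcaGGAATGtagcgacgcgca
*Wwtr1* (chr3:57576029-57576058, minus strand): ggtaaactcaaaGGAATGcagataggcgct

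In *Ccn1* the match began 103 bases before the start, in *Amotl2* 65 bases before it and in *Lats2* 5 bases after it. The *Ankrd1* promoter held 2 matches, 210 and 123 bases before the start, and the *Ajuba* promoter also held 2, at 186 and 164 bases. The match lay 141 bases before the start in *Yap1* and 136 bases in *Wwtr1*. These distances are from the RefSeq start. In the GENCODE annotation the stretches of *Amotl2*, *Lats2* and *Ankrd1* overlap an exon, outside the coding sequence, of Amotl2-201, Lats2-201 and Ankrd1-205, the most abundant transcript of each gene here, and the others overlap no exon. The AP-1 letters TGANTCA and the CArG box bound by SRF were in no window of the 8 genes, against 7.81% and 1.63% of all windows. A match of letters is a description of the reference genome, and no factor binding was measured here.

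The 150 bases before the *Ccn1* start are shown because, of *Ccn1*, *Ccn2* and *Ankrd1*, only *Ccn1* passed the test below. *Amotl2*, itself a known YAP target, passed that test too. The TEAD letters occur once in these 150 bases of *Ccn1*, with no exon in the stretch.
*Ccn1* (chr3:145649986-145650135, minus strand): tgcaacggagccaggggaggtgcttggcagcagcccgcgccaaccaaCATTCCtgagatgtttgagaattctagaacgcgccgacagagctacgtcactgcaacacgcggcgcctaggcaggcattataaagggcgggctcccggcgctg

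*Ccn1* and *Amotl2* rose in FlncgKO hearts, and 6 other YAP and TEAD genes were above all controls in every FlncgKO library without passing the test across all genes. *Ccn1* and *Amotl2*, 2 of 10, were higher at an adjusted p under 0.05 by edgeR's quasi-likelihood test, against 1.06% of all 16048 genes tested, and 0 of 10 were lower, against 0.249%. At an unadjusted p under 0.05, 8 of 10 were higher (13.3% of all genes) and 0 lower (8.84%). DESeq2, the tool the study used, run on the same counts, placed the same 8 genes past its adjusted threshold as higher (6.42% of the genes it adjusted) and 0 as lower (2.39%). With 1 library left out at a time, DESeq2 placed 4 to 7 of the 10 as higher. For the 8 genes every FlncgKO library lay above every control, an order found in 15.7% of all genes (14.1% in the other direction). The median log2 fold change of the 10 genes was 0.37, against 0.01 over all genes tested, with a range of −0.21 to 1.48, and 8 were positive and 2 negative, against 51.6% and 48.4% of all genes. Because the 10 genes and the lists further below were chosen with earlier results known, shares set beside all genes describe them and test nothing. The exact permutation test over libraries, two-sided, gave p = 0.1 for each of the 8, the smallest that 3 against 3 allows, 0.2 for *Amotl1* and 0.5 for *Yap1*.

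**Figure D1:**
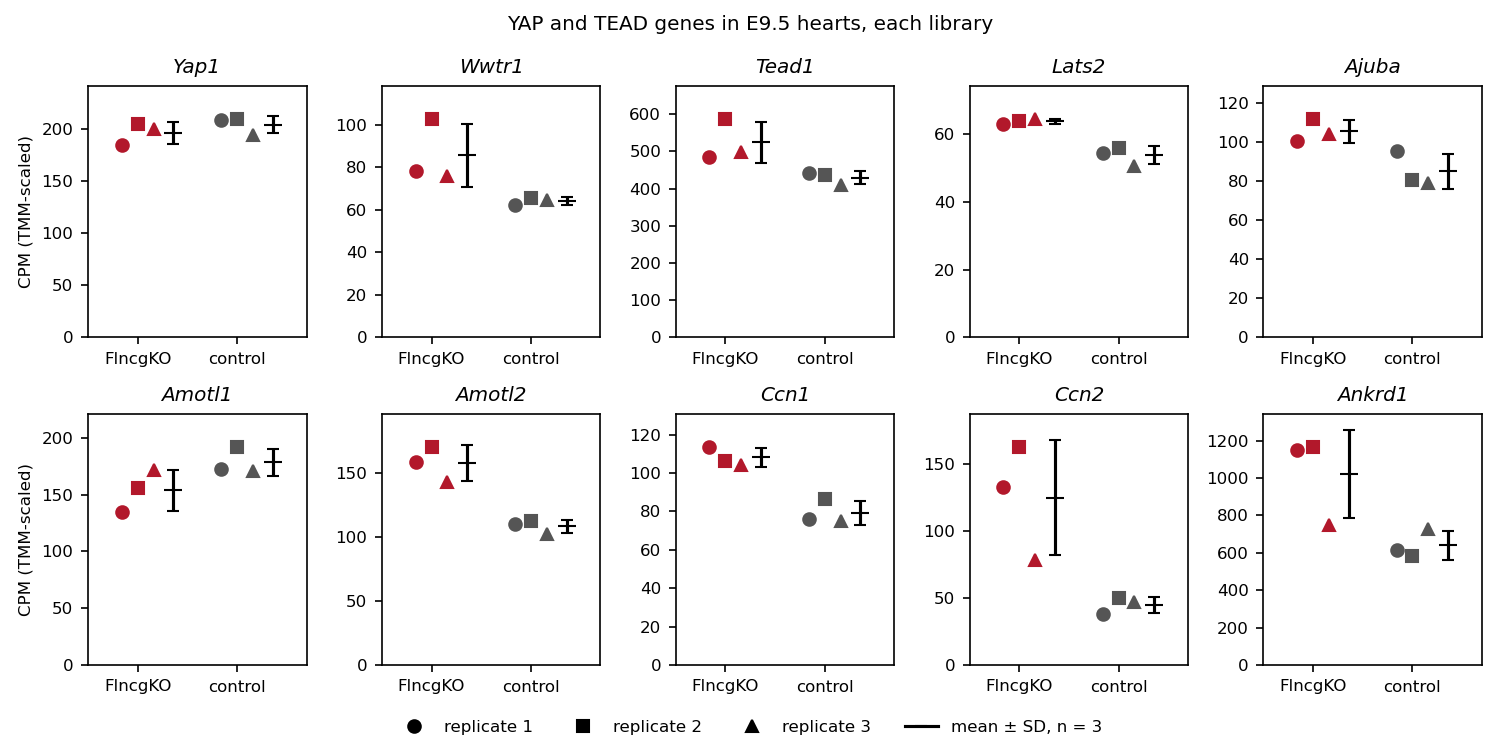
Each panel plots 1 gene in CPM (TMM-scaled, axis from 0), with FlncgKO libraries in red on the left and control libraries in grey, marker shape giving the replicate number, and the bar the mean ± SD (n = 3 per group). In 8 panels every red point lies above every grey one; *Yap1* and *Amotl1* overlap, and FlncgKO replicate 3 (triangle) is the lowest FlncgKO library for *Ccn2* (78.4 CPM) and *Ankrd1* (751 CPM).

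Among the 3 target genes *Ccn1*, *Ccn2* and *Ankrd1*, *Ccn2* showed the largest difference. *Ccn2* (chr10:24595442-24598683, plus strand) encodes CTGF, a secreted matricellular protein that promotes fibroblast activation and matrix production. It was at 133, 163 and 78.4 CPM in FlncgKO replicates 1, 2 and 3, against 38.2, 49.5 and 46.7 CPM in control replicates 1, 2 and 3. The groups did not overlap, and the FlncgKO libraries spread much more widely than the controls, 125 ± 42.8 CPM in FlncgKO hearts and 44.8 ± 5.87 CPM in controls (SD, n = 3 each). The log2 fold change was 1.48 (SE 0.29, 95% interval 0.73 to 2.22), a 2.78-fold difference that missed the threshold in edgeR (adjusted p = 0.0806) and passed it in DESeq2 (adjusted p = 0.000251). Leaving out FlncgKO replicate 3 gave 1.72 for the log2 fold change and 0.00181 for the edgeR adjusted p. Without any 1 of the other libraries the edgeR adjusted p of *Ccn2* was 0.148 to 0.269. The antisense gene Gm15270 overlaps *Ccn2* and held at most 2.38% as many counts as *Ccn2* in any library.

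*Ccn1* (chr3:145646976-145649981, minus strand) encodes CYR61, the related matricellular ligand of integrins. It was at 114, 106 and 105 CPM in FlncgKO replicates 1, 2 and 3, against 76.2, 86.6 and 75.0 CPM in controls. The 3 FlncgKO libraries lay within a narrow band above all controls, 108 ± 4.98 CPM in FlncgKO hearts and 79.3 ± 6.38 CPM in controls (SD, n = 3 each). *Ccn1* rose (log2 fold change 0.45, SE 0.073, edgeR adjusted p = 0.0408, DESeq2 adjusted p = 1.79e-05). Leaving out 1 library at a time, the edgeR adjusted p was 0.0844, 0.0939 and 0.0117 without FlncgKO replicates 1, 2 and 3, and 0.216, 0.191 and 0.0804 without control replicates 1, 2 and 3. The call was therefore lost in 5 of 6 cases, at log2 fold changes of 0.40 to 0.52. DESeq2 kept *Ccn1* past the threshold in 6 of 6.

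*Ankrd1* (chr19:36111961-36120099, minus strand) encodes CARP, a muscle ankyrin repeat protein that binds titin in the sarcomere and also acts in the nucleus, and that is known to respond to stretch and load. It was at 1150, 1168 and 751 CPM in FlncgKO replicates 1, 2 and 3, against 612, 581 and 729 CPM in control replicates 1, 2 and 3. Replicates 1 and 2 lay far above the controls in FlncgKO hearts, while replicate 3 of FlncgKO and replicate 3 of control nearly met. The means were 1023 ± 236 CPM in FlncgKO hearts and 641 ± 77.8 CPM in controls (SD, n = 3 each), with a log2 fold change of 0.67 (SE 0.19, edgeR adjusted p = 0.126, DESeq2 adjusted p = 0.000635). Leaving out FlncgKO replicate 3 gave 0.85 and an edgeR adjusted p of 0.00285. Without any 1 of the other 5 libraries edgeR gave 0.57 to 0.78 with adjusted p values of 0.157 to 0.337. Without both libraries numbered 3, a fit chosen after seeing the data, edgeR gave 0.96 and 0.000643. That fit removed the libraries that nearly met, so its smaller p is no separate support. DESeq2 lost *Ankrd1* without FlncgKO replicate 1 (adjusted p = 0.239), FlncgKO replicate 2 (0.278) or control replicate 1 (0.215).

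**Figure D2:**
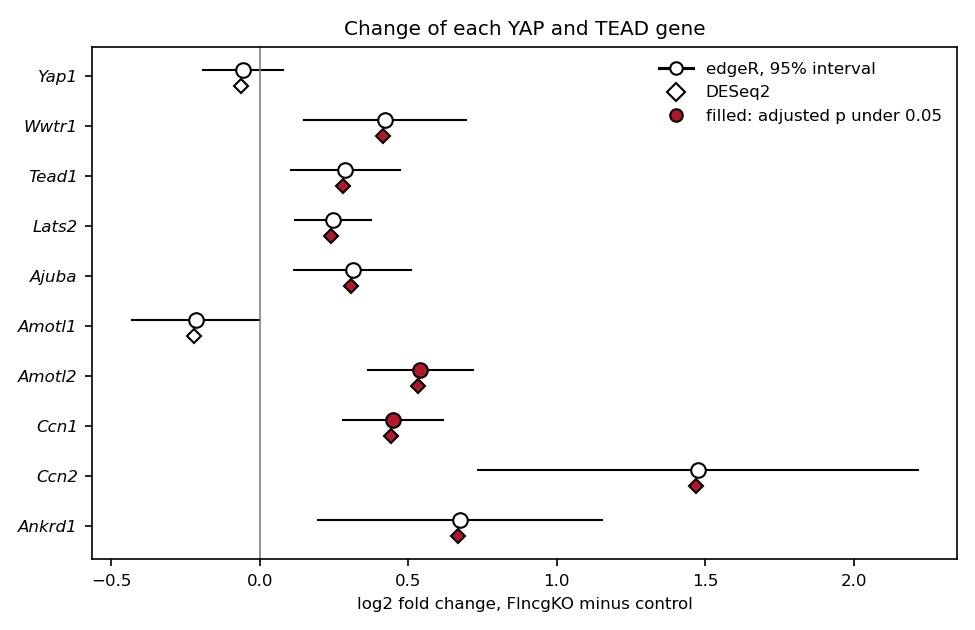
For each gene the circle gives edgeR's log2 fold change (FlncgKO minus control) with its 95% interval, and the diamond below it the DESeq2 estimate; filled symbols are past an adjusted p of 0.05. The intervals of 8 genes lie above 0, those of *Amotl2* and *Ccn1* are narrow and filled, and *Ccn2* has the largest estimate (1.48) and the widest interval (0.73 to 2.22).

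Of the coactivators, *Wwtr1* was higher in every FlncgKO library and *Yap1* showed no such difference. *Yap1* (chr9:7931999-8004596, minus strand) was at 185, 205 and 200 CPM in FlncgKO replicates 1, 2 and 3, against 208, 210 and 195 CPM in controls. The groups overlapped, and the 95% interval of the log2 fold change, −0.19 to 0.08 around −0.06, included 0 (edgeR adjusted p = 0.616). *Wwtr1* (chr3:57455649-57575910, minus strand) was at 78.2, 103 and 75.9 CPM in FlncgKO replicates 1, 2 and 3, against 62.0, 65.5 and 64.5 CPM in controls. The groups did not overlap, and FlncgKO replicate 2 was the high one. Its log2 fold change was 0.42 (SE 0.12, edgeR adjusted p = 0.101, DESeq2 adjusted p = 0.0159), which was 0.27 without FlncgKO replicate 2 and 0.50 without FlncgKO replicate 3, where the edgeR adjusted p was 0.0414. Without any 1 of the other libraries the edgeR adjusted p of *Wwtr1* was 0.104 to 0.308. DESeq2 kept *Wwtr1* in 3 of 6 fits that left out 1 library.

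*Tead1* (chr7:112679318-112906807, plus strand), the DNA-binding partner, was at 484, 588 and 499 CPM in FlncgKO replicates 1, 2 and 3, against 443, 435 and 410 CPM in controls. All FlncgKO libraries lay above all controls, again with FlncgKO replicate 2 highest. The log2 fold change was 0.29 (SE 0.079, edgeR adjusted p = 0.0983, DESeq2 adjusted p = 0.0152). In fits that left out 1 library, *Tead1* passed edgeR's threshold in 0 of 6 (adjusted p 0.0636 to 0.286). The lowest of these adjusted p values was without FlncgKO replicate 3, at a log2 fold change of 0.32. DESeq2 kept *Tead1* in 3 of 6 such fits.

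Of the 4 regulators that act on YAP and TAZ from upstream, *Amotl2* rose, *Lats2* and *Ajuba* were above all controls in every FlncgKO library without passing edgeR's threshold, and *Amotl1* had the most negative fold change of the 10 genes. *Amotl2* (chr9:102716672-102733418, plus strand) encodes an angiomotin that ties YAP to junctional actin and is itself a known YAP target. It was at 159, 171 and 143 CPM in FlncgKO replicates 1, 2 and 3, against 110, 112 and 102 CPM in controls. The groups were well separated, 158 ± 14.1 CPM in FlncgKO hearts and 108 ± 5.27 CPM in controls (SD, n = 3 each), a 1.45-fold rise (log2 fold change 0.54, SE 0.076, edgeR adjusted p = 0.0348, DESeq2 adjusted p = 1.53e-07). Of the 16048 genes tested *Amotl2* ranked 60 by edgeR's p and *Ccn1* ranked 128. For *Amotl2* the edgeR adjusted p was 0.072, 0.0699 and 0.00201 without FlncgKO replicates 1, 2 and 3, and 0.197, 0.191 and 0.0664 without control replicates 1, 2 and 3, at log2 fold changes of 0.48 to 0.61, so that the call was lost in 5 of 6 cases. DESeq2 kept it in 6 of 6.

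*Amotl1* (chr9:14541966-14645056, minus strand), a paralog with the same binding motif for YAP, was at 135, 155 and 171 CPM in FlncgKO replicates 1, 2 and 3, against 173, 192 and 171 CPM in controls. FlncgKO replicates 1 and 2 lay under all controls and the libraries numbered 3 met at the same value. The log2 fold change was −0.21 (SE 0.093, edgeR adjusted p = 0.229, DESeq2 adjusted p = 0.167), and the log2 fold change was −0.14 without FlncgKO replicate 1. DESeq2 gave an adjusted p of 0.0124 without FlncgKO replicate 3 and of 0.237 to 0.592 without any 1 of the other libraries.

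*Lats2* (chr14:57689662-57758388, minus strand), the Hippo kinase that is also a known YAP target, was at 63.0, 63.8 and 64.6 CPM in FlncgKO replicates 1, 2 and 3, against 54.6, 56.0 and 50.8 CPM in controls. The difference was small and the libraries within each group close, with no overlap (log2 fold change 0.25, SE 0.055, edgeR adjusted p = 0.0725, DESeq2 adjusted p = 0.0309). *Ajuba* (chr14:54567472-54577558, minus strand), the LIM protein that restrains LATS kinases at adherens junctions under tension, was at 101, 112 and 104 CPM in FlncgKO replicates 1, 2 and 3, against 95.4, 80.7 and 79.0 CPM in controls. Control replicate 1 came close to the FlncgKO libraries, and the log2 fold change was 0.31 (SE 0.085, edgeR adjusted p = 0.0976, DESeq2 adjusted p = 0.0239). Leaving out 1 library at a time, DESeq2 kept *Ajuba* in 2 of 6 fits and *Lats2* in 1 of 6.

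The sign of each of the 10 fold changes was the same under all 21 alternatives run, but the number past edgeR's threshold depended on which libraries entered. Without FlncgKO replicate 3, 5 genes were higher (*Wwtr1*, *Ccn1*, *Ccn2*, *Ankrd1* and *Amotl2*), against 989 of all 16350 genes tested in that fit. Without any 1 of the other 5 libraries 0 of 10 passed, where 1 to 95 of all genes were called higher. In these 5 fits 7 or 8 of the 10 were higher by the unadjusted p, against 1557 to 1986 of all genes. DESeq2 kept *Ccn1*, *Ccn2* and *Amotl2* in 6 of 6 such fits and between 4 and 7 genes per fit. The 8 genes named above are by definition higher than every control in FlncgKO replicate 1, the FlncgKO library with Y-linked RNA. That order is therefore no separate check on sex. In that library *Ccn2* was at 133 CPM and *Ankrd1* at 1150 CPM. With the Y-linked level as a covariate the log2 fold changes were 0.55 for *Ccn1*, 1.58 for *Ccn2*, 0.86 for *Ankrd1* and 0.56 for *Amotl2*. *Wwtr1* was at 0.26 (edgeR unadjusted p = 0.195) and *Tead1* at 0.15 (edgeR unadjusted p = 0.243) with this covariate. *Amotl1* was at −0.44 in that fit (unadjusted p = 0.00938 in edgeR, adjusted p = 0.369). No gene in the genome passed edgeR's adjusted threshold there, and by the unadjusted p 5 of the 10 genes were higher and 1 lower, against 904 higher and 388 lower of all 16048 genes.

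**Figure D3:**
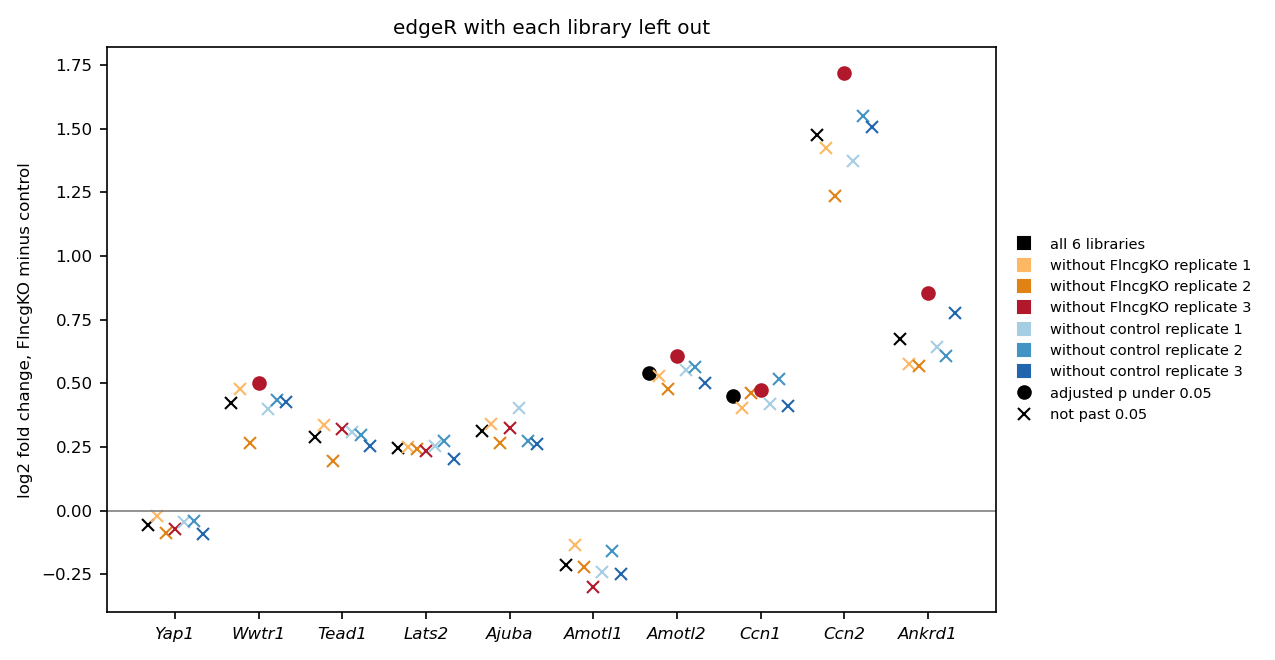
The log2 fold change of each gene (FlncgKO minus control) from edgeR with all 6 libraries (black) and with each library left out (colours); circles are past an adjusted p of 0.05 and crosses are not. Signs do not change for any gene; circles appear in the full set for *Amotl2* and *Ccn1*, and without FlncgKO replicate 3 (dark red) for 5 genes.

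Levels of different genes were compared in the authors' TPM, which accounts for transcript length, summed over the transcripts of each gene. In FlncgKO hearts *Ankrd1* was highest at a mean of 833 TPM, followed by *Tead1* at 108, *Ccn2* at 105, *Ccn1* at 94.2 and *Yap1* at 87.5, neighbours whose ranges overlapped. Below them came *Amotl2* at 67.3 and *Ajuba* at 60.8, which overlapped, then *Wwtr1* at 37.4, *Amotl1* at 27.4 and *Lats2* at 20.7. In controls the order ran *Ankrd1* at 523 TPM, *Yap1* at 92.5 and *Tead1* at 89.5, which overlapped, *Ccn1* at 68.8, *Ajuba* at 49.8 and *Amotl2* at 44.4, which overlapped, *Ccn2* at 37.5, *Amotl1* at 31.5, *Wwtr1* at 27.9 and *Lats2* at 17.8. By mean TPM *Ccn2* thus took place 3 in FlncgKO hearts and place 7 in controls.

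Several of the genes have paralogs, and the share of each within its family was compared as well. YAP and TAZ transcripts together amounted to 125 ± 11.6 TPM in FlncgKO hearts and 120 ± 4.99 TPM in controls (SD, n = 3 each, exact permutation p = 0.8), and *Wwtr1* made up 29.5, 32.8 and 27.2% of them in FlncgKO replicates 1, 2 and 3, against 22.2, 23.3 and 24.0% in controls. The 4 TEAD genes summed to 274 ± 19.1 TPM in FlncgKO hearts and 290 ± 12.1 TPM in controls (SD, n = 3 each, exact permutation p = 0.3). *Tead2*, a TEAD of early embryonic tissues, was at 157, 149 and 151 CPM in FlncgKO replicates 1, 2 and 3, against 206, 192 and 189 CPM in controls. *Tead2* fell (log2 fold change −0.37, SE 0.054, edgeR adjusted p = 0.0369, DESeq2 adjusted p = 7.21e-07) while *Tead1* was higher, so the ratio of *Tead1* to *Tead2* in TPM was 0.737, 0.942 and 0.907 in FlncgKO replicates 1, 2 and 3, against 0.576, 0.551 and 0.503 in controls. No FlncgKO library overlapped a control in that ratio (exact permutation p = 0.1, the smallest possible). The *Tead2* call was lost in 5 of 6 fits that left out 1 library (edgeR adjusted p 0.0546 to 0.197) and was kept without FlncgKO replicate 3 (0.0121).

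The angiomotins amounted to 145 ± 9.15 TPM in FlncgKO hearts and 120 ± 3.66 TPM in controls (SD, n = 3 each, exact permutation p = 0.1). *Amotl2* took 47.3, 49.7 and 42.1% of that sum in FlncgKO replicates 1, 2 and 3, against 36.1, 39.5 and 35.3% in controls, and *Amotl1* took 17.1, 18.5 and 20.96% in FlncgKO replicates, against 24.7, 27.6 and 26.4% in controls. The ratio of *Lats2* to *Lats1* in TPM was 1.75 ± 0.044 in FlncgKO hearts and 1.51 ± 0.125 in controls (SD, n = 3 each, exact permutation p = 0.1), where *Lats1* was at 11.8 TPM in both groups. *Ajuba* made up 47.6 ± 1.77% of the summed TPM of *Ajuba*, *Limd1* and *Wtip* in FlncgKO hearts and 42.7 ± 2.08% in controls (SD, n = 3 each, exact permutation p = 0.1). Each p of 0.1 here marks groups that did not overlap and could not be smaller with 3 libraries each.

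**Figure D4:**
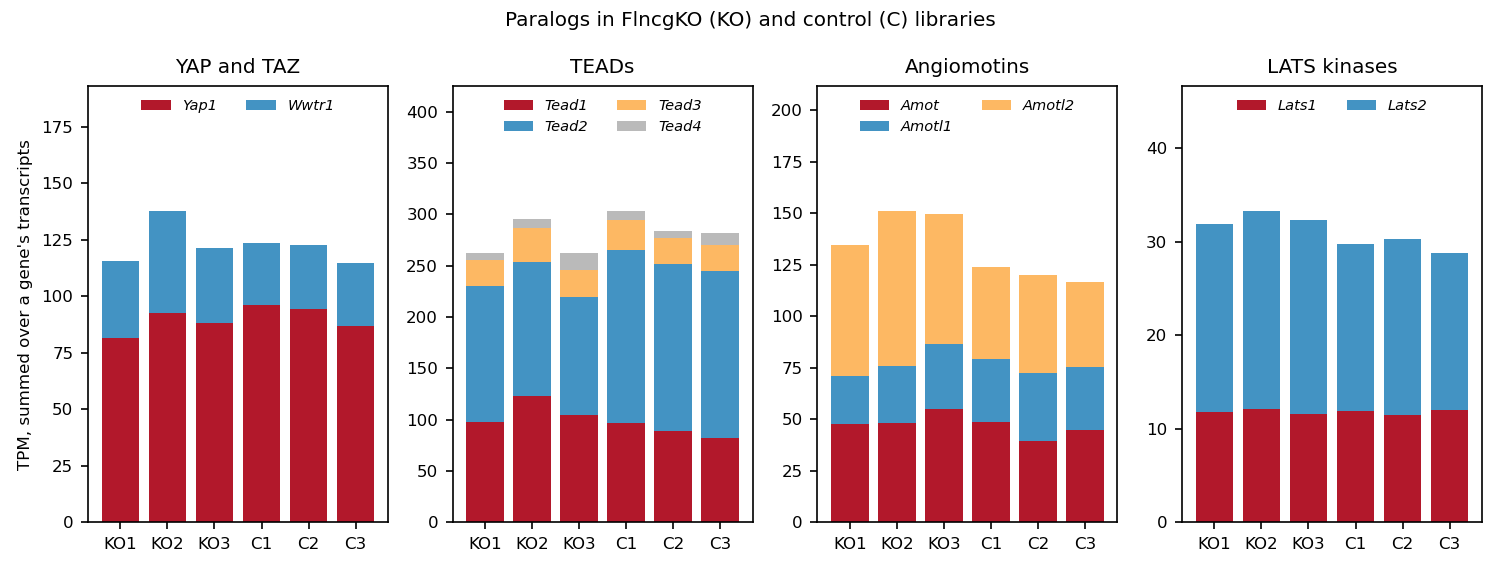
Stacked bars give the TPM of the paralogs in each family for FlncgKO replicates (KO1 to KO3, left) and control replicates (C1 to C3, right), from 0. *Wwtr1* takes a larger share of YAP and TAZ, *Tead1* a larger and *Tead2* a smaller share of the TEADs, and *Amotl2* a larger share of the angiomotins in every FlncgKO library.

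The quantification resolves single transcripts, although reads shared by transcripts of 1 gene are divided by estimation. For *Ankrd1* the difference lay in Ankrd1-205, the transcript of the full protein of 319 amino acids, which was at 713, 769 and 439 TPM in FlncgKO replicates 1, 2 and 3, against 339, 305 and 357 TPM in controls. The retained-intron transcript Ankrd1-202 was at 115, 94.8 and 103 TPM in FlncgKO replicates, against 94.3, 88.3 and 125 TPM in controls, and so overlapped between groups. Ankrd1-205 made up 76.3% of the gene's TPM in FlncgKO hearts and 64.0% in controls, as means of 3 libraries. For *Ccn2* the main transcript Ccn2-201 followed the gene, with 100, 131 and 59.0 TPM in FlncgKO replicates 1, 2 and 3, against 27.9, 30.3 and 35.5 TPM in controls.

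Of 15 annotated *Tead1* transcripts, Tead1-202 was the most abundant, and its groups stood apart only narrowly. It was at 80.5, 96.0 and 78.9 TPM in FlncgKO replicates 1, 2 and 3, against 78.8, 72.8 and 68.3 TPM in controls. Tead1-201 was less abundant and more clearly separated, at 11.5, 17.0 and 15.4 TPM in FlncgKO replicates 1, 2 and 3, against 6.95, 9.12 and 8.02 TPM in controls. *Yap1* was read mainly from Yap1-202, which encodes 472 amino acids and made up 73.4% of its TPM in FlncgKO hearts and 73.6% in controls. Amotl2-201 was at 44.9, 45.2 and 38.4 TPM in FlncgKO replicates 1, 2 and 3, against 31.3, 29.8 and 30.2 TPM in controls. *Ccn1* has a single annotated transcript, and Wwtr1-201, Lats2-201 and Amotl1-201 each made up at least 89.3% of their gene's TPM in both groups, as means of 3 libraries.

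Other genes of the pathway, from lists of known members, were read from the same fit. Of 22 genes of the Hippo kinase cascade and its upstream regulators, 0 passed edgeR's adjusted threshold in either direction, 4 were higher and 2 lower where only the unadjusted p was held to 0.05, and DESeq2 placed 3 as higher and 0 as lower, with a median log2 fold change of 0.01. *Sav1*, the scaffold of the Hippo kinases, was at 64.8, 70.5 and 65.0 CPM in FlncgKO replicates 1, 2 and 3, against 55.2, 52.8 and 56.2 CPM in controls. Its groups did not overlap (log2 fold change 0.29, SE 0.057, edgeR adjusted p = 0.0600, DESeq2 adjusted p = 0.0103). Of the other TEADs and Vgll coregulators, 5 of 6 were tested, and 1, *Tead2*, was lower and 0 higher.

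Of 17 other known YAP and TAZ targets, 16 were tested. Their median log2 fold change was 0.34, against 0.01 over all genes, and 14 of 16 had a positive fold change, against 51.6% of all genes. By edgeR's adjusted p 0 of 16 passed, 5 were higher and 1 lower by the unadjusted p, and DESeq2 placed 3 as higher and 1 as lower. *Igfbp3*, a secreted binding protein of insulin-like growth factors, was at 69.7, 127 and 63.9 CPM in FlncgKO replicates 1, 2 and 3, against 18.4, 18.1 and 21.2 CPM in controls. All FlncgKO libraries were more than 2-fold above all controls (log2 fold change 2.18, SE 0.31, edgeR adjusted p = 0.0501, DESeq2 adjusted p = 7.79e-18). *Asap1*, a regulator of ARF GTPases at focal adhesions, had a log2 fold change of 0.39, the same edgeR adjusted p and a DESeq2 adjusted p of 0.000458. Of the relatives of the 3 main targets, *Ccn4* was at 0.14 (edgeR adjusted p = 0.610, DESeq2 adjusted p = 0.725) as the 1 of 4 other CCN genes with enough counts. *Ankrd23*, the 1 tested of 2 other muscle ankyrin repeat genes, was at 0.11 (edgeR adjusted p = 0.682, DESeq2 adjusted p = 0.856).

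*Ccn1*, *Ccn2* and *Ankrd1* are also known to respond to SRF with its actin-sensing partner MRTF and, as immediate early genes, to growth factors and injury. Of 10 other SRF and MRTF genes 1 was higher and 0 lower by edgeR's adjusted p, 5 were higher and 0 lower by the unadjusted p, and the median log2 fold change was 0.13. The called gene was *Myh9*, the heavy chain of nonmuscle myosin IIA, at 684, 631 and 564 CPM in FlncgKO replicates 1, 2 and 3, against 343, 359 and 373 CPM in controls. *Myh9* rose with wide separation of the groups (log2 fold change 0.80, SE 0.075, edgeR adjusted p = 0.0212, DESeq2 adjusted p = 1.33e-18). The edgeR call was kept in 4 of 6 fits that left out 1 library, and lost without control replicate 1 (adjusted p = 0.197) or 2 (0.191).

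Of 15 immediate early genes, 0 passed edgeR's adjusted threshold, 12 were higher and 1 lower by the unadjusted p, and DESeq2 placed 10 as higher and 0 as lower. Their median log2 difference from the control mean was 1.06, 1.29 and 0.48 in FlncgKO replicates 1, 2 and 3, against −0.03, −0.22 and 0.18 in control replicates 1, 2 and 3. *Atf3*, a stress-induced factor, had a log2 fold change of 1.07 (edgeR adjusted p = 0.0780, DESeq2 adjusted p = 0.000484). For *Dusp1*, a phosphatase that ends MAP kinase signals, it was 0.39 (edgeR adjusted p = 0.0711, DESeq2 adjusted p = 0.0311). FlncgKO replicate 3 was the lowest FlncgKO library for the immediate early list as it was for *Ccn1*, *Ccn2*, *Ankrd1*, *Amotl2* and *Wwtr1*. For *Yap1*, *Tead1*, *Amotl1*, *Lats2* and *Ajuba* FlncgKO replicate 1 was lowest. It was also lowest for the other YAP and TAZ targets, with medians of 0.14, 0.43 and 0.42 in FlncgKO replicates 1, 2 and 3. What part the immediate early response had in the target genes was not tested.

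**Figure D5:**
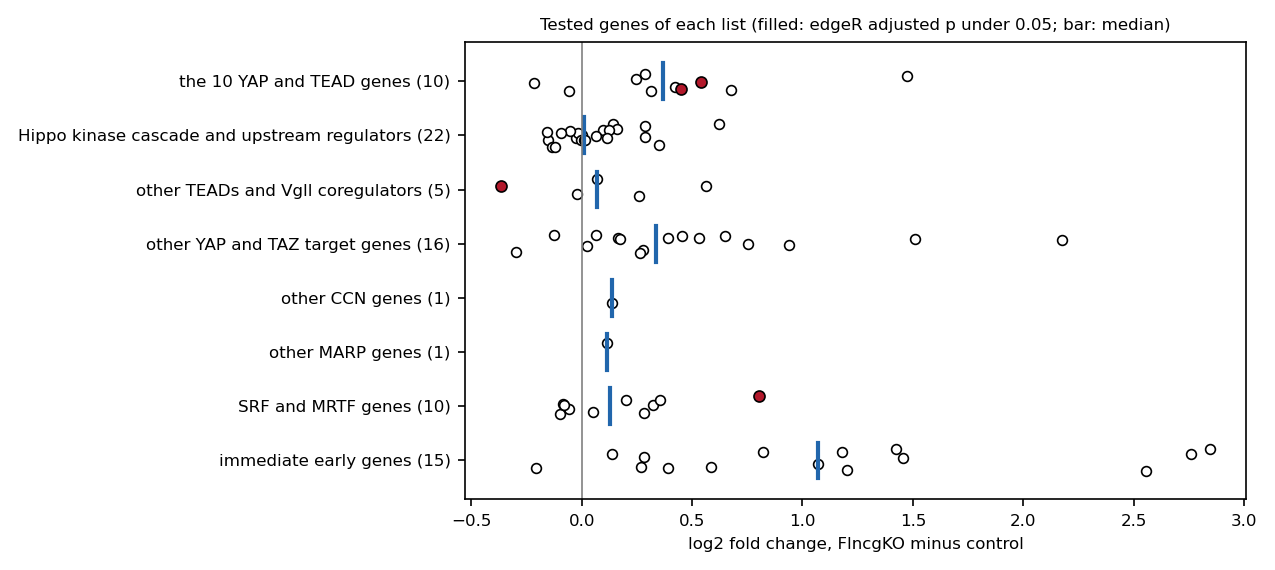
Log2 fold changes (FlncgKO minus control) of the 10 YAP and TEAD genes and of the tested genes of 7 other lists, the number tested in brackets; filled points are past edgeR's adjusted p of 0.05 and the blue bar is the list's median. Medians lie at 0.37 for the 10 genes, 0.34 for other YAP and TAZ targets, 1.07 for immediate early genes and 0.01 for the Hippo list.

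The hearts carried the RNA of several cell types, and in bulk samples fewer cells of a type and less RNA per cell cannot be told apart. The 12 cardiomyocyte markers summed to 34744 to 40882 CPM in FlncgKO libraries and 38169 to 43040 CPM in controls, with 0 of 12 past edgeR's adjusted threshold and 2 higher and 2 lower by the unadjusted p. Platelet and megakaryocyte markers had the largest median log2 fold change of the lists, 4.71. They summed to 473, 302 and 84.7 CPM in FlncgKO replicates 1, 2 and 3, against 17.7 to 26.4 CPM in controls, with 10 of 10 higher at an unadjusted p under 0.05 and by DESeq2 and 0 of 10 by edgeR's adjusted p. FlncgKO replicate 3 was again lowest. No marker of this list was at 0 in all libraries. Endothelial and endocardial markers summed to 1023 to 1246 CPM in FlncgKO libraries and 956 to 1143 CPM in controls, with 3 of 10 higher and 2 lower both by the unadjusted p and by DESeq2. By edgeR's adjusted p 1 of 10, *Emcn*, was higher (log2 fold change 1.24, edgeR adjusted p = 0.0353, DESeq2 adjusted p = 2.73e-12). That edgeR call was kept without FlncgKO replicate 3 (0.0215) and lost without any 1 of the other 5 libraries (0.0563 to 0.191).

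Erythroid markers summed to 6286 to 9806 CPM in FlncgKO libraries and 2540 to 7165 CPM in controls, with control replicate 3 highest among the controls and 0 of 7 past edgeR's adjusted threshold or at an unadjusted p under 0.05 in either direction, nor by DESeq2. Mesenchyme markers summed to 327 to 555 CPM in FlncgKO libraries and 311 to 344 CPM in controls, epicardium markers to 69.8 to 88.3 CPM in FlncgKO libraries and 72.3 to 101 CPM in controls, epithelial markers to 7.56 to 48.0 CPM in FlncgKO libraries and 2.27 to 24.1 CPM in controls, and macrophage markers to 7.50 to 25.7 CPM in FlncgKO libraries and 3.57 to 12.7 CPM in controls. No gene of these 4 lists passed edgeR's adjusted threshold. By the unadjusted p 1 gene of each list was higher, and 1 mesenchyme and 1 epicardium gene were lower, while DESeq2 placed 1 mesenchyme and 1 macrophage gene as higher. *Ccn1*, *Ccn2* and *Amotl2* are expressed by endothelial and mesenchymal cells as well as by cardiomyocytes. The part that these cell types or platelets had in the YAP and TEAD genes was not tested.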

How the data were processed

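Per the labels and the study's methods, polyadenylated RNA of 6 heart libraries (3 FlncgKO, 3 control) was made into strand-specific libraries, and the authors quantified the reads against GENCODE M22 transcripts (GRCm38.p6) with salmon, whose version is not given in the sources used here. The deposited tables give estimated counts and TPM for 140658 transcripts. Transcripts were joined to genes through GENCODE M21, also on GRCm38. The 0.370% without a gene there, holding 0.108% to 0.131% of the counts, were dropped. Estimated counts were added up over each gene's transcripts and rounded to whole numbers. The authors' TPM were summed per gene to compare levels between genes.

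Genes were tested with edgeR 4.0.16 under R 4.3.3 (robust quasi-likelihood test, TMM scaling, and filterByExpr at 10 counts), adjusting by Benjamini-Hochberg over all 16048 genes at a threshold of 0.05. The pipeline was tested on simulated counts. Of 50 genes changed there by a log2 fold of 0.5, edgeR recovered 16% and DESeq2 28%. At a log2 fold of 1 these were 60% and 66%. Among 15848 unchanged genes, edgeR made 19 false calls and DESeq2 64. Single values were compared by exact permutation of libraries, two-sided. Log2 CPM carried a prior of 0.01. Alternatives were RLE scaling, total counts, other filters, length offsets, a replicate block, a Y-linked covariate, DESeq2 1.42.0 (the authors used 1.22.2), and leaving out each library.

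The 10 genes and the lists were chosen with earlier results of these data known. The genes named are the 10, *Flnc*, and from each list those past the threshold, or the 2 with the smallest p where none passed, with marker lists given mainly by their sums and counts. Some of these genes are not reported here. A planned search of protein motifs was not run, and proteins are not analysed here.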

Additional observations from a re-analysis of the deposited data

How the results depend on the processing

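Counts past the threshold (10 YAP and TEAD genes higher, then all genes higher and lower, then genes of the 6 pathway lists higher and lower, immediate early genes left out) were 2, then 170 and 40, then 1 and 1 as reported, with 0 of the 10 genes lower in every edgeR fit. RLE scaling gave 2, then 162 and 48, then 1 and 1, and total counts gave 2, then 150 and 54, then 1 and 1. Without the filter they were 2, then 392 and 162, then 4 and 2, and with 10 counts in every library 2, then 215 and 62, then 5 and 1. With length offsets they were 1 (*Amotl2*; *Ccn1* had an adjusted p of 0.055), then 63 and 13, then 1 and 0. With the Y-linked covariate all were 0, with 904 and 388 genes at an unadjusted p under 0.05. DESeq2 gave 8, then 990 and 368, then 10 and 2. Leaving out 1 library, edgeR gave 0 to 5, then 1 to 989 and 0 to 283, then 0 to 11 and 0 to 1, and DESeq2 4 to 7 (lower 0 to 1) of the 10 genes, then, without FlncgKO replicates 1, 2 and 3 and control replicates 1, 2 and 3 in turn, 795, 541, 1303, 562, 569 and 959 higher and 399, 200, 553, 128, 128 and 326 lower genes, with 6 to 13 and 1 to 3 in the lists. Without both libraries numbered 3, edgeR gave 4, then 990 and 251, then 13 and 2. DESeq2 without each library, and leaving out both libraries numbered 3, were chosen after seeing the data, and the cause of these shifts was not tested.

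With the replicate number as a block, edgeR gave 2 of the 10 genes, then 512 and 120 of all genes, then 7 and 2 of the pathway lists. Deviations from the group mean correlated at 0.043, 0.571 and 0.605 within replicate numbers 1, 2 and 3 and at −0.618 to 0.192 across them, and control replicate 1 correlated best with FlncgKO replicate 2. Libraries were treated as unpaired.

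No fold change of the 10 genes changed sign. Among marker genes that passed no test, the Y-linked covariate turned *Cdh1* to −0.60, *Grhl3* to −0.78 and *Csf1r* to −0.64, and leaving out 1 library moved *Csf1r* between −0.51 and 2.45, with −0.51 in edgeR and −0.52 in DESeq2 without FlncgKO replicate 3. In CPM, which does not account for length, the control order of levels changed for 9 of the 10 genes, and searching only before the start left GGAATG in 6 genes.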
